A study of Mus with 12 samples.

Results

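The retinoic acid genes described here are 9 genes that take up vitamin A, turn it into retinoic acid, carry the acid and break it down, namely Stra6, Rdh10, Dhrs3, Aldh1a1, Aldh1a2, Aldh1a3, Crabp2, Cyp26a1 and Cyp26b1. They were found by gene name among the rows that hold an Ensembl transcript, which gave 9 rows of 87235 in the table of the implantation stage and 9 rows of 40787 in the table of the labor stage. The study sequenced RNA from the whole uterus of pregnant ICR mice, an outbred stock, with 1 mouse per library and no treatment. The series' design text gives an age of 8 weeks for all groups, whereas the methods give the age at mating, so that the groups also differ in age by the days between them. The 4 groups of 3 mice are named by the day after mating, E0.5 and E4.5 early in pregnancy, and E15.5 and E18.5 late in it. E0.5 was compared with E4.5 (the implantation stage) and E18.5 with E15.5 (the labor stage), to ask which transcripts differ between days that the study separates by progesterone level. The groups differ in day of pregnancy, and in no genotype or agent. The sources used here do not say whether embryos, placentas or ovaries were trimmed from the uteri.

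Retinol, the circulating form of vitamin A, enters cells through the membrane receptor Stra6 and is oxidised to retinal by Rdh10, a step that Dhrs3 runs backwards. The enzymes Aldh1a1, Aldh1a2 and Aldh1a3 then oxidise retinal irreversibly to retinoic acid, Crabp2 carries the acid to the nuclear receptors Rara, Rarb and Rarg, and Cyp26a1 and Cyp26b1 degrade it. In the mouse uterus, Cyp26a1 is known from the epithelium around implantation, and Aldh1a2 is known from the stroma.

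At the implantation stage all 9 rows lie on the reference coordinates of GRCm38, with starts and ends within 501 bases of the RefSeq gene of the same name. The rows of the labor stage are listed without coordinates. Some of them hold fewer Ensembl transcripts than at the implantation stage (Stra6 12 against 14, Cyp26b1 3 against 5 and Cyp26a1 1 against 2). Stra6 lies on chromosome 9 (58063788 to 58153996, plus strand), Rdh10 on chromosome 1 (16105381 to 16132547, plus strand) and Dhrs3 on chromosome 4 (144892823 to 144928209, plus strand). The acid-forming genes are Aldh1a1 on chromosome 19 (20492715 to 20643504, plus strand), Aldh1a2 on chromosome 9 (71215789 to 71296243, plus strand) and Aldh1a3 on chromosome 7 (66390890 to 66427517, minus strand). Crabp2 lies on chromosome 3 (87948666 to 87953376, plus strand), Cyp26a1 on chromosome 19 (37697749 to 37701536, plus strand) and Cyp26b1 on chromosome 6 (84571414 to 84593908, minus strand). Each row is a whole gene, summed over its exons, and at the implantation stage every one includes a protein-coding transcript. Other RefSeq genes overlap Stra6 (Ccdc33), Dhrs3 (Vps13d) and Aldh1a1 (E030003E18Rik, C730002L08Rik and Gm6684), and since the sources do not say whether strand was used in counting, reads of overlapping genes could not be told apart.

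The libraries of the implantation stage held between 58020989 and 70906881 counts, and the depth of the labor libraries cannot be read from their FPKM. Levels are given as FPKM (read fragments scaled by transcript length and by library size), a scale per length on which genes can be compared within a library. By correlation with the other libraries of their day, 2 of the 12 libraries stood apart. The third E4.5 library had a Spearman correlation of 0.725 and 0.711 with the other E4.5 libraries across 15947 rows, whereas the other pairs of the same day in that table had 0.885 to 0.910. In that library the summed FPKM of 5 ovary markers (Star, Cyp11a1, Lhcgr, Hsd3b1 and Inha) was 1325, against 3.91 to 6.02 in the other 5 libraries, and all 5 markers were highest there. Its smooth muscle markers summed to 184 FPKM, against 626 to 1051 in the others. The first E15.5 library correlated at 0.902 and 0.872 with the other E15.5 libraries across 14254 rows, whereas the other pairs of the same day in the labor table had 0.946 to 0.956. It held a summed 1362 FPKM of decidua markers, against 90.2 to 109.6 in the other labor libraries, of which Prl8a2 made up 1342. The labor libraries also differed in visceral yolk sac markers, which summed to 1.36, 100.2 and 736 FPKM at E15.5 and to 180, 530.1 and 88.2 FPKM at E18.5. Epithelium, stroma and smooth muscle markers of the uterus were present in all 12 libraries. Since the tissue was sequenced in bulk, fewer cells of a type and less RNA per cell cannot be told apart in any value below. Values of every member are therefore given per library, and fold changes of every member with and without the 2 libraries that stood apart by correlation.

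Some of the retinoic acid genes differed between E0.5 and E4.5, and did so in opposite directions. Cyp26a1, which degrades the acid, and Stra6, which takes up retinol, were far higher at E4.5, while Rdh10 and Dhrs3, which interconvert retinol and retinal, were higher at E0.5. In all, 4 of the 9 genes passed the study's criterion (a log2 fold change of 1 or more in either direction and an unadjusted p under 0.05), 2 in each direction, where 12.2% of the 59732 rows tested passed it. The criterion was passed by 6.37% of all rows as higher and by 5.82% as lower at E0.5. One of the 9 genes, Cyp26a1, had an adjusted p under 0.05 in edgeR's quasi-likelihood test, as did 1.2% of all rows with that fold. This count was 5 of 9 without the third E4.5 library (Stra6, Rdh10, Dhrs3, Aldh1a1 and Cyp26a1) and 0 without any other single library. The FPKM of E0.5 and E4.5 did not overlap for 5 of the 9 genes, 2 higher and 3 lower at E0.5, against 25.2% of all rows (12.8% as higher and 12.5% as lower). The median log2 fold change (E0.5 over E4.5) was -0.72 over the 9 genes and -0.01 over all rows. P-values for a pair of days compare 3 libraries with 3, or fewer where a library is left out. They set the difference between the days against the spread between these mice.

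**Figure D1:**
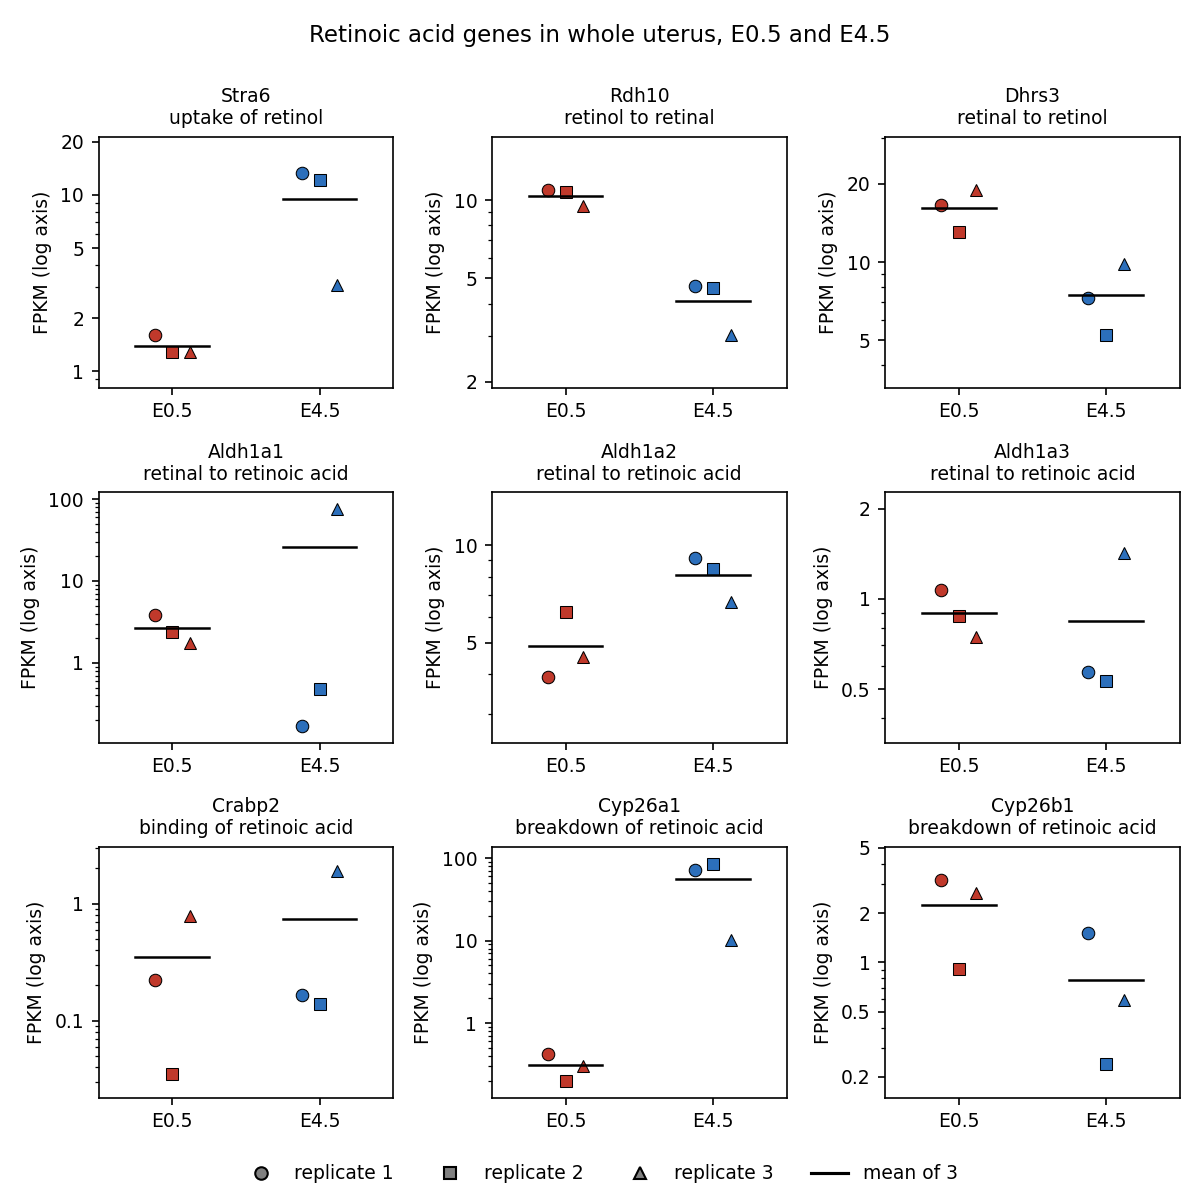
Level of each retinoic acid gene in FPKM (vertical log axis, its range set per panel) in the 3 E0.5 and 3 E4.5 uteri, with a point per library, its shape giving the replicate, and a line at the mean of 3. Cyp26a1 lies below 0.43 FPKM in every E0.5 library and at 10.3 FPKM or more in every E4.5 library, while Aldh1a1 reaches 76.3 FPKM in the third E4.5 library alone.

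Stra6 was measured at 1.61, 1.29 and 1.29 FPKM at E0.5 and at 13.3, 12.1 and 3.09 FPKM at E4.5. Every E4.5 library lay above every E0.5 library, and the third E4.5 library was the lowest of its day. The means were 1.40 ± 0.182 and 9.52 ± 5.60 FPKM (SD, n = 3 each), so that E4.5 was 6.81 times as high. The log2 fold change of E0.5 over E4.5 was -2.77 (SE 0.55, adjusted p = 0.0698, edgeR). It passed the criterion with any 1 library left out, and was -3.20 without the third E4.5 library (adjusted p = 0.000787, edgeR). The other fits with a library left out gave it adjusted p-values in edgeR between 0.154 and 0.249.

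Rdh10, the enzyme of the first oxidation step, was measured at 10.9, 10.8 and 9.45 FPKM at E0.5 and at 4.65, 4.59 and 3.04 FPKM at E4.5. The days did not overlap. The means were 10.4 ± 0.805 and 4.09 ± 0.915 FPKM (SD, n = 3 each), and the log2 fold change was 1.34 (SE 0.23, adjusted p = 0.0522, edgeR). Without the third E4.5 library it was 1.15 (adjusted p = 0.00821, edgeR), and the other fits with a library left out gave adjusted p-values in edgeR between 0.12 and 0.202. The criterion was passed with any 1 library left out. Dhrs3, which returns retinal to retinol, was measured at 16.6, 13.0 and 18.9 FPKM at E0.5 and at 7.27, 5.26 and 9.85 FPKM at E4.5. These days did not overlap either. Dhrs3 had means of 16.2 ± 2.96 and 7.46 ± 2.30 FPKM (SD, n = 3 each) and a log2 fold change of 1.13 (SE 0.27, adjusted p = 0.104, edgeR). It lay under the fold of the criterion without the third E0.5 library (0.99) and without the second E4.5 library (0.92), and was 1.34 without the third E4.5 library (adjusted p = 0.0272, edgeR, against 0.179 to 0.291 without any other). The level of Rdh10 was 0.5 to 0.825 times that of Dhrs3 at E0.5 and 0.308 to 0.873 times at E4.5, so that the ratio of the opposing enzymes overlapped between the days although both were lower at E4.5. The 5 epithelium markers summed to 166 to 206 FPKM at E0.5 and to 58.7 to 137 FPKM at E4.5, with no overlap. Epcam, Krt8 and Cdh1 followed the sum without overlap, whereas Krt18 and Foxa2 overlapped between the days. Of 12 marker lists, 2 others had sums that did not overlap, endothelium (higher at E4.5) and adrenal (5.04 to 20.3 FPKM at E0.5 and 0.0802 to 0.435 FPKM at E4.5, nearly all of it Cyp21a1). The part of these cells in the Rdh10 and Dhrs3 values was not tested.

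Among the acid-forming enzymes, Aldh1a2 was measured at 3.93, 6.21 and 4.52 FPKM at E0.5 and at 9.13, 8.42 and 6.67 FPKM at E4.5. The days did not overlap, with means of 4.88 ± 1.18 and 8.07 ± 1.27 FPKM (SD, n = 3 each). The log2 fold change was -0.72 (SE 0.25, adjusted p = 0.219, edgeR), under the fold of the criterion, and -0.86 without the third E4.5 library. Aldh1a1 was measured at 3.9, 2.37 and 1.73 FPKM at E0.5 and at 0.170, 0.478 and 76.3 FPKM at E4.5. The first and second E4.5 libraries lay below every E0.5 library, and the third lay far above them. Its log2 fold change was -3.21 (SE 1.96, adjusted p = 0.441, edgeR) and turned to 3.04 (SE 0.53, adjusted p = 0.0232, edgeR) without the third E4.5 library, a fit in which it passed the criterion. The other fits tried gave adjusted p-values between 0.355 and 0.969 in edgeR and limma. The counts behind these values were 1697, 898 and 773 at E0.5 and 74, 200 and 31558 at E4.5. The library with 31558 counts was the one with 1325 FPKM of ovary markers and 79.4 FPKM of oviduct markers (3.63 to 14.8 FPKM in the others). The part of these cells in the Aldh1a1 value was not tested. Aldh1a3 stayed low, at 1.08, 0.878 and 0.744 FPKM at E0.5 and at 0.572, 0.531 and 1.42 FPKM at E4.5, and the days overlapped (log2 fold change 0.12, SE 0.42, adjusted p = 0.908, edgeR). Its log2 fold change was 0.68, under the fold of the criterion, without the third E4.5 library.

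Crabp2, the carrier of retinoic acid, was measured at 0.220, 0.0351 and 0.792 FPKM at E0.5 and at 0.165, 0.139 and 1.91 FPKM at E4.5. It rested on 25, 4 and 92 counts at E0.5 and on 19, 16 and 205 counts at E4.5, so a difference was not detectable at this depth and spread. The log2 fold change was -1.02 (SE 1.30, adjusted p = 0.730, edgeR), and 1.14 without the third E4.5 library.

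Cyp26a1, the acid-degrading enzyme, showed the widest difference of the 9 genes. It was measured at 0.425, 0.199 and 0.303 FPKM at E0.5 and at 72.6, 85.0 and 10.3 FPKM at E4.5, from 96, 39 and 70 counts and from 16148, 18182 and 2182 counts. No E4.5 library came near the E0.5 range, though the third E4.5 library was again the lowest of its day. The means were 0.309 ± 0.113 and 55.9 ± 40.1 FPKM (SD, n = 3 each). The log2 fold change of E0.5 over E4.5 was -7.49 (SE 0.94, adjusted p = 0.0264, edgeR). Without the third E4.5 library it was -7.99, and with any 1 library left out it lay between -7.99 and -7.10 with adjusted p-values in edgeR between 0.000320 and 0.153. The third E4.5 library was also the lowest of its day in the summed markers of epithelium (95.1, 137 and 58.7 FPKM), stroma (90.7, 111.5 and 53.2 FPKM) and smooth muscle. Endothelium markers summed to 13.2 to 15.4 FPKM at E0.5 and to 21.4 to 40.3 FPKM at E4.5, with no overlap for the sum, Cdh5 or Kdr but with overlap for Pecam1. The part of these cells in the Cyp26a1 values was not tested. Cyp26b1, a paralog of Cyp26a1 with the same function, was measured at 3.16, 0.905 and 2.65 FPKM at E0.5 and at 1.51, 0.239 and 0.591 FPKM at E4.5. The days overlapped, and the log2 fold change of 1.49 (SE 0.75, adjusted p = 0.360, edgeR) did not pass. It passed without the first E4.5 library (2.47) and was 1.30 without the third.

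**Figure D2:**
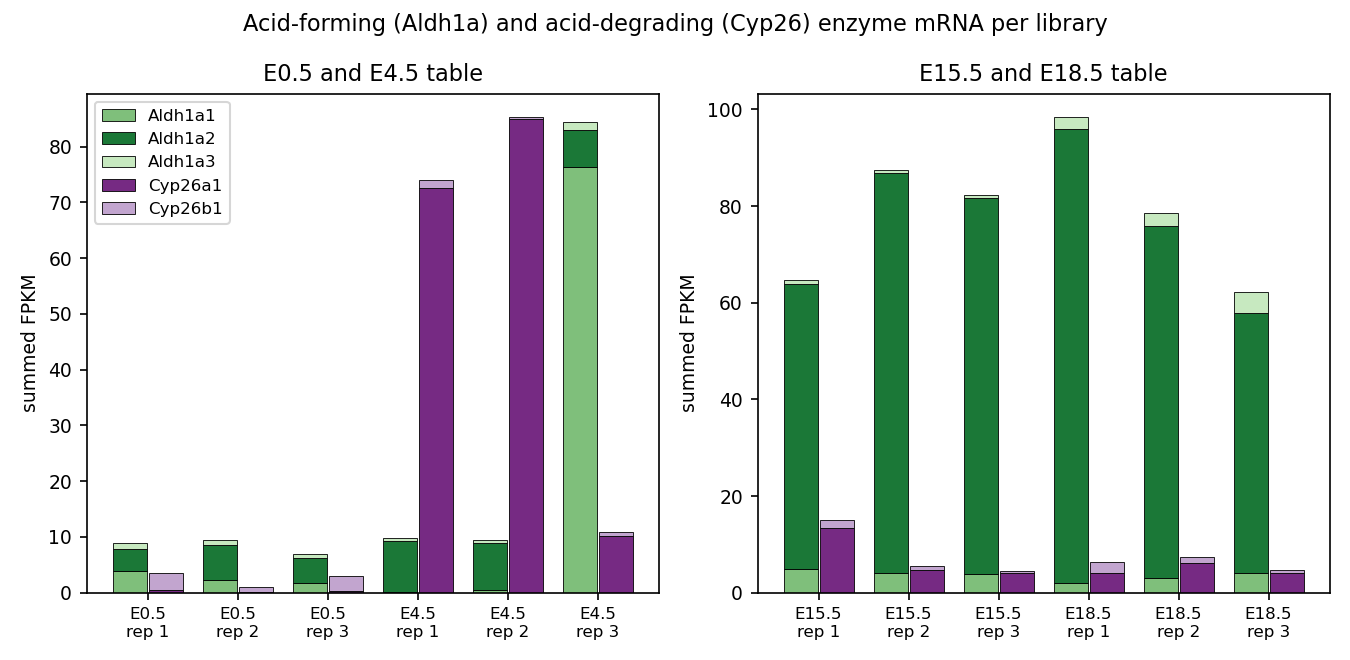
Summed FPKM (vertical axis from 0) of the acid-forming Aldh1a genes (green) and the acid-degrading Cyp26 genes (purple), stacked by gene, in each of the 12 libraries, with the tables of the stages in separate panels because they were normalized separately. Cyp26a1 fills the purple bars of E4.5, Aldh1a1 fills the green bar of the third E4.5 library, and Aldh1a2 fills the green bars at E15.5 and E18.5.

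The share of Cyp26a1 in its family did not overlap between E0.5 and E4.5, whereas the shares of Aldh1a1 and Aldh1a2 in theirs lay on both sides of the E0.5 range at E4.5. Cyp26a1 made up 11.9%, 18.1% and 10.2% of the summed Cyp26 FPKM at E0.5, and 98.0%, 99.7% and 94.6% of it at E4.5. The summed Aldh1a level was 8.90, 9.46 and 7.00 FPKM at E0.5, while the E4.5 libraries held 9.87, 9.43 and 84.4 FPKM. Aldh1a2 made up 44.1%, 65.6% and 64.6% of it at E0.5, 92.5% and 89.3% in the first and second E4.5 libraries and 7.90% in the third, where Aldh1a1 made up 90.4%. The ratio of the summed Aldh1a to the summed Cyp26 level was 2.48, 8.56 and 2.37 at E0.5 and 0.133, 0.111 and 7.77 at E4.5. The acid-forming genes thus had the larger summed level in every E0.5 library, the Cyp26 genes had it in the first and second E4.5 libraries, and the third E4.5 library lay in the range of E0.5. In the order of mean levels at E0.5, Dhrs3 came before Rdh10 and Aldh1a2, none of whose ranges overlapped the next, followed by Aldh1a1, Cyp26b1 and Stra6, each of whose ranges overlapped the next of these, and by Aldh1a3, Crabp2 and Cyp26a1, for which the same held. At E4.5 Cyp26a1 came first by its mean, but the ranges of Cyp26a1, Aldh1a1, Stra6, Aldh1a2 and Dhrs3 each overlapped the next.

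Between E15.5 and E18.5, Aldh1a3 and Rdh10 were higher at E18.5, and the other 7 genes did not pass the criterion. Thus 2 of the 9 genes passed it, both higher at E18.5, where 6.05% of the 30928 rows tested passed it, 3.11% as higher and 2.93% as lower. None of the 9 genes had an adjusted p under 0.05 in limma, while Aldh1a3 and Rdh10 had an unadjusted p under 0.05, and 0.0259% of all rows were past the adjusted threshold with that fold. The FPKM of the days did not overlap for 2 of the 9 genes, both higher at E18.5, against 19.9% of all rows (10.9% as higher and 8.96% as lower). The median log2 fold change (E18.5 over E15.5, on the log2(FPKM + 0.1) scale, which understates the change of low genes) was 0.61 over the 9 genes and 0.02 over all rows.

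**Figure D3:**
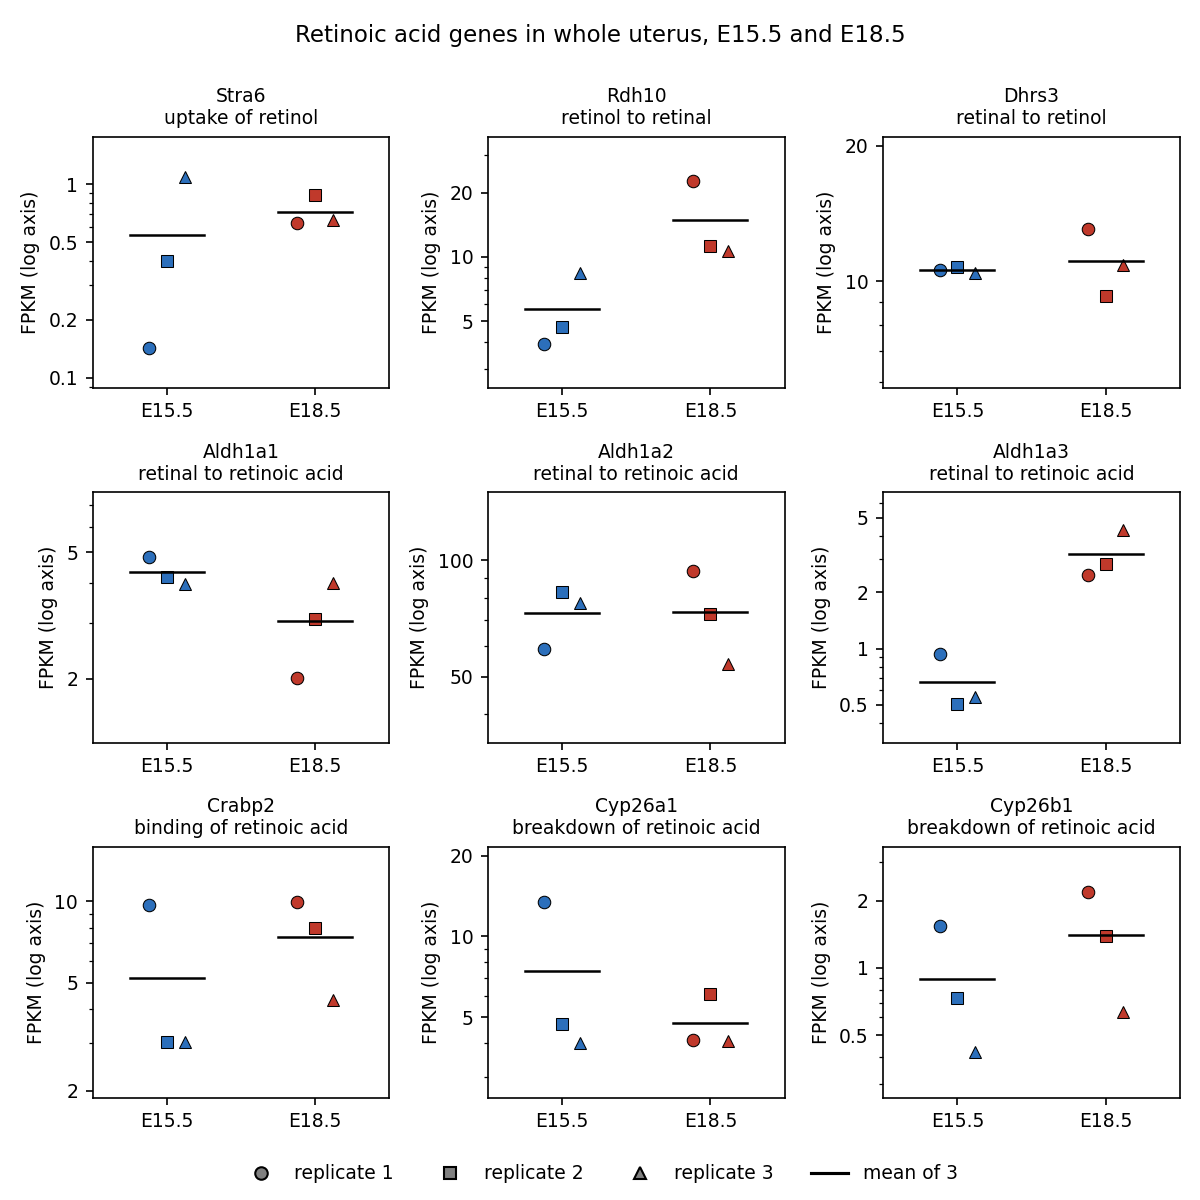
Level of each retinoic acid gene in FPKM (vertical log axis, its range set per panel) in the 3 E15.5 and 3 E18.5 uteri, with a point per library, its shape giving the replicate, and a line at the mean of 3. Aldh1a3 lies at 0.503 to 0.937 FPKM at E15.5 and at 2.49 to 4.30 FPKM at E18.5, and Rdh10 is the other gene whose days do not overlap.

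Aldh1a3, the acid-forming enzyme that was low at the implantation stage, was measured at 0.937, 0.503 and 0.554 FPKM at E15.5 and at 2.49, 2.85 and 4.30 FPKM at E18.5. Every E18.5 library lay above every E15.5 library. The means were 0.665 ± 0.237 and 3.21 ± 0.957 FPKM (SD, n = 3 each), and the log2 fold change was 2.12 (SE 0.30, adjusted p = 0.0905, limma). It lay between 1.9 and 2.36 with any 1 library left out, and passed the criterion each time, with 2.36 without the first E15.5 library. The summed FPKM of 5 trophoblast markers was 34.9, 4.06 and 3.70 at E15.5 and 56.6, 72.9 and 41.7 at E18.5, and Tpbpa, the only one of the 5 whose days did not overlap, was 6.20, 1.41 and 1.66 FPKM at E15.5 and at 42.2, 52.7 and 31.9 FPKM at E18.5. Of the other markers in that sum, Prl2c2 was at 22.5, 0.830 and 0.790 FPKM at E15.5 and at 13.6, 18.2 and 6.56 FPKM at E18.5. Prl3b1 was at 5.14, 1.59 and 1.14 FPKM at E15.5 and at 0.734, 1.97 and 2.93 FPKM at E18.5, Psg17 stayed between 0.0478 and 0.245 FPKM, and Prl3d1 was at 0 in 4 of these 6 libraries and at most at 0.907 FPKM. The sums of epithelium and mesothelium markers, given below, were also higher at E18.5 without overlap, and that of endothelium was lower. The part of trophoblast or of these other cells in the Aldh1a3 value was not tested.

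Rdh10 was measured at 3.91, 4.68 and 8.43 FPKM at E15.5 and at 22.7, 11.3 and 10.6 FPKM at E18.5. The days did not overlap, and the first E18.5 library was the highest. The means were 5.67 ± 2.42 and 14.9 ± 6.82 FPKM (SD, n = 3 each), and the log2 fold change of 1.36 (SE 0.38, adjusted p = 0.240, limma) passed the criterion with any 1 library left out, with a range of 1.02 to 1.69. Without the first E15.5 library it was 1.14. The summed epithelium markers were 178, 259 and 357 FPKM at E15.5 and at 685, 521 and 491 FPKM at E18.5, so that at both stages the day with the higher Rdh10 level was the day with the higher epithelium sum. At the labor stage 4 of the 5 markers followed it without overlap, and Foxa2 overlapped. Mesothelium markers summed to 20.6, 17.6 and 17.0 FPKM at E15.5 and to 44.0, 22.5 and 21.1 FPKM at E18.5, in the order of Rdh10 at E18.5, with no overlap for the sum and for 1 of its 4 markers. Endothelium markers summed to less at E18.5, at 57.8 to 87.2 FPKM against 127.5 to 158.5 FPKM at E15.5. Pecam1 and Cdh5 followed that sum without overlap, whereas Kdr overlapped. Epithelium, mesothelium, endothelium and trophoblast were the 4 of 12 lists whose sums did not overlap at this stage. The part of these cells in the Rdh10 values was not tested.

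**Figure D4:**
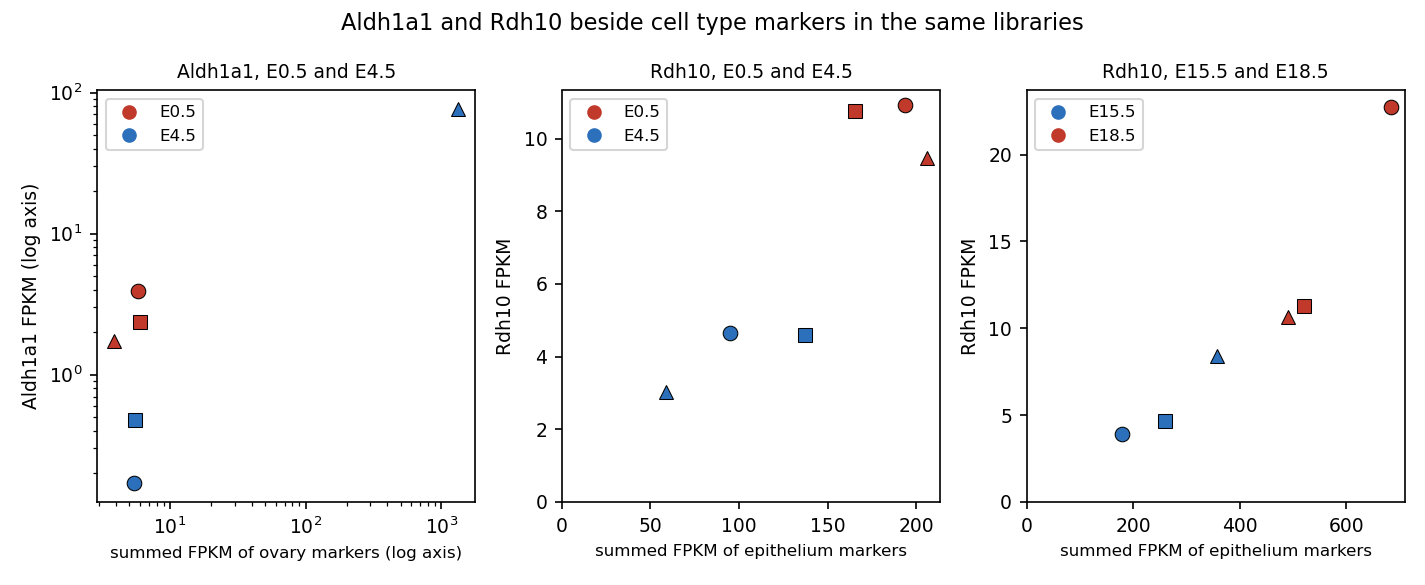
Aldh1a1 in FPKM against the summed FPKM of 5 ovary markers at the implantation stage (both axes log), and Rdh10 in FPKM against the summed FPKM of 5 epithelium markers at each stage (linear axes from 0), with a point per library coloured by day and its shape (circle, square, triangle) giving replicate 1, 2 or 3. The third E4.5 library stands alone in the first panel, at 1325 FPKM of ovary markers and 76.3 FPKM of Aldh1a1, and in the other panels the days do not overlap on either axis.

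Aldh1a2 was the most abundant of the 9 genes at both days of the labor stage, at 59.0, 82.7 and 77.7 FPKM at E15.5 and at 93.9, 72.7 and 53.9 FPKM at E18.5. Its range did not overlap that of any other member on either day. The means were 73.2 ± 12.5 and 73.5 ± 19.98 FPKM (SD, n = 3 each), and a difference was not shown (log2 fold change -0.01, SE 0.24, adjusted p = 0.987, limma, and -0.16 without the first E15.5 library). It made up 86.7% to 95.4% of the summed Aldh1a level in the 6 libraries. The summed Aldh1a level was 4.32, 16.0 and 18.6 times the summed Cyp26 level at E15.5 and 15.6, 10.5 and 13.2 times at E18.5, above 1 in all 6 libraries. Aldh1a1 was measured at 4.82, 4.16 and 3.98 FPKM at E15.5 and at 2.02, 3.07 and 3.99 FPKM at E18.5. Its highest E18.5 value reached the lowest of E15.5, and the log2 fold change was -0.55 (SE 0.25, adjusted p = 0.442, limma) and -0.47 without the first E15.5 library. Dhrs3 varied least, at 10.6, 10.8 and 10.4 FPKM at E15.5 and at 13.1, 9.30 and 10.9 FPKM at E18.5 (log2 fold change 0.05, SE 0.15, adjusted p = 0.916, limma), and its fold change was 0.05 without the first E15.5 library as well. Rdh10 accordingly lay at 0.368, 0.435 and 0.809 times the Dhrs3 level at E15.5 and at 1.74, 1.21 and 0.979 times at E18.5, with no overlap.

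The first E15.5 library, which held 1342 FPKM of the decidua marker Prl8a2 against 40.2 to 86.0 FPKM in the others, was also the library with the highest Cyp26a1 level and the highest Crabp2 level of its day. Cyp26a1 was measured at 13.5, 4.73 and 4.004 FPKM at E15.5 and at 4.12, 6.08 and 4.08 FPKM at E18.5. The days overlapped, and the log2 fold change was -0.43 (SE 0.45, adjusted p = 0.724, limma) with that library and 0.10 without it. Crabp2 was measured at 9.66, 3.02 and 3.01 FPKM at E15.5 and at 9.92, 7.98 and 4.32 FPKM at E18.5. Its log2 fold change was 0.64 (SE 0.51, adjusted p = 0.647, limma) and 1.19 without that library, which passed the criterion. The other 3 decidua markers were not raised in that library as Prl8a2 was. There Cryab was at 17.9 FPKM (22.1 to 60.5 in the other 5), Wnt4 at 1.01 FPKM (0.683 to 2.52) and Bmp2 at 1.02 FPKM (0.536 to 1.06). The trophoblast markers Prl3b1, Prl2c2 and Prl3d1 were at their highest in it, whereas Tpbpa and Psg17 were not. Tpbpa was at 6.20 FPKM there and at 31.9 to 52.7 FPKM at E18.5, and Psg17 at 0.0961 FPKM against 0.245 FPKM in the third E18.5 library. The trophoblast sum of 34.9 FPKM in it lay below every E18.5 sum (41.7 to 72.9 FPKM). The part of decidua or trophoblast in the Cyp26a1 and Crabp2 values was not tested. Cyp26b1 stayed at 1.54, 0.730 and 0.419 FPKM at E15.5 and at 2.18, 1.39 and 0.632 FPKM at E18.5, with overlap (log2 fold change 0.61, SE 0.55, adjusted p = 0.684, limma). Without the first E15.5 library its log2 fold change was 1.05, which did not pass the criterion. Stra6 was measured at 0.143, 0.402 and 1.09 FPKM at E15.5 and at 0.629, 0.874 and 0.656 FPKM at E18.5 (log2 fold change 0.63, SE 0.56, adjusted p = 0.680, limma). The summed visceral yolk sac markers were 1.36, 100.2 and 736 FPKM at E15.5 and at 180, 530.1 and 88.2 FPKM at E18.5, in the same order as Stra6 at E15.5 but not at E18.5. The log2 fold change of Stra6 was 0.07 without the first E15.5 library and 1.22, which passed the criterion, without the third, and the part of the yolk sac in these values was not tested.

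The effect of the day was then compared between the stages, as the difference of the fold changes (E0.5 over E4.5, minus E18.5 over E15.5), which asks whether a gene responded alike in both. Of the 9 genes, 4 passed the criterion for this difference, where 12% of the 20777 rows tested passed it. They were Cyp26a1, Stra6 and Aldh1a3 with a negative difference (6.57% of all rows) and Dhrs3 with a positive one (5.41% of all rows). Cyp26a1 alone had an adjusted p under 0.05 (2.61% of all rows with that fold), with a difference of -6.22 (SE 0.99, adjusted p = 0.0103, limma). Without the third E4.5 library 4 of the 9 genes had one, and they were Cyp26a1, Stra6, Dhrs3 and Aldh1a1, whose difference was then 3.28. Stra6 differed by -3.06 (adjusted p = 0.0777, limma), Aldh1a3 by -1.92 (adjusted p = 0.0725, limma) and Dhrs3 by 1.09 (adjusted p = 0.0968, limma). These are differences on the log2(FPKM + 0.1) scale, and the median over all rows was -0.14, so they are to be read against that shift. For Rdh10 the difference was -0.02 (SE 0.47, adjusted p = 0.988, limma). It was higher on the earlier day of the implantation stage and on the later day of the labor stage, and a p that misses the threshold does not show that these folds were equal. For Aldh1a1 the difference was 0.75, which rests on a log2 fold change of 0.20 for E0.5 over E4.5 in limma, of opposite sign to the -3.21 that edgeR gave on counts. The remaining differences were -0.71 for Aldh1a2, -1.21 for Crabp2 and 0.92 for Cyp26b1, and these and Aldh1a1 had adjusted p-values in limma between 0.299 and 0.893.

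**Figure D5:**
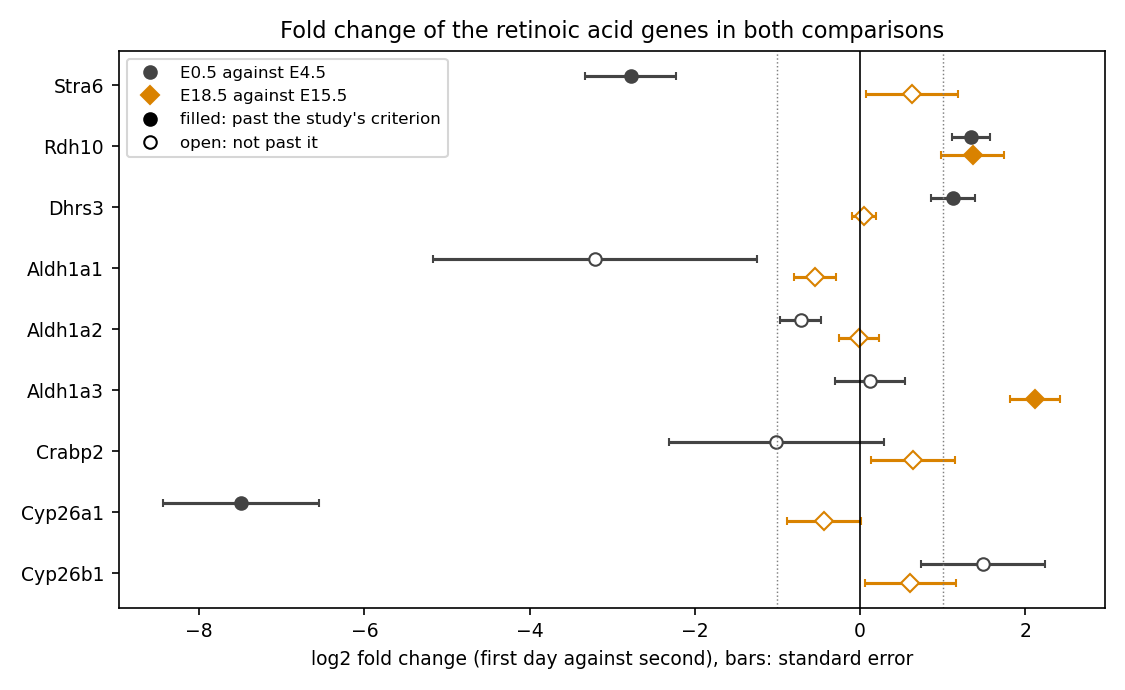
Log2 fold change of each retinoic acid gene (horizontal axis) for E0.5 over E4.5 (grey circles, edgeR on counts) and E18.5 over E15.5 (orange diamonds, limma on log2(FPKM + 0.1)), with bars of 1 standard error, filled where the criterion was passed. Cyp26a1 lies at -7.49 for E0.5 over E4.5 and at -0.43 for E18.5 over E15.5, whereas Rdh10 lies at 1.34 and 1.36.

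Of 65 other genes of the retinoid pathway in 8 roles, 53 were tested at the implantation stage on 52 rows, since Rdh1 and Rdh9 share a merged row. By the criterion 8 were higher and 9 lower at E0.5, where 6.37% and 5.82% of all rows were, and 2 had an adjusted p under 0.05 in edgeR, where 1.2% of all rows had one with the fold of the criterion. The 2 were Lrat and Cyp1b1, and both calls were lost with the replicate block and without any 1 library other than the third E4.5 library. Counts by role below are to be read against the same shares. Their median log2 fold change was 0.07. In uptake and transport, 1 gene was higher and 3 were lower. The higher one was Rbp4, at 6.66, 2.76 and 2.91 FPKM at E0.5 and at 1.58, 1.32 and 2.27 FPKM at E4.5 (log2 fold change 1.26, adjusted p = 0.2075, edgeR). Lrp2, the endocytic receptor megalin, was at 0.595, 0.434 and 1.2 FPKM at E0.5 and at 7.42, 6.63 and 3.00 FPKM at E4.5 (log2 fold change -2.94, adjusted p = 0.0555, edgeR). Ttr, which carries the retinol complex in blood, was listed at 0 in every E0.5 library and at 1.31, 3.63 and 0.0370 FPKM at E4.5, so no fold is given. Scarb1, a lipoprotein receptor, was at 2.78, 2.14 and 1.99 FPKM at E0.5 and at 6.48, 5.60 and 73.5 FPKM at E4.5, with a log2 fold change of -3.58 that shrank to -1.41 without the third E4.5 library. In storage and release, Lrat, which esterifies retinol for storage, was at 0.481, 0.555 and 0.737 FPKM at E0.5 and at 3.28, 2.79 and 6.26 FPKM at E4.5 (log2 fold change -2.77, adjusted p = 0.0291, edgeR, and 0.00518 to 0.166 with a library left out). The lipases of that role were lower at E4.5. The log2 fold change was 1.08 for the row of Lipe, which is merged with Cxcl17, and 2.69 for Ces1d. Ces1d passed the criterion in 1 of 6 fits with a library left out, the one without the third E4.5 library, where it was 4.91. The 4 fat markers summed to 224, 74.7 and 74.6 FPKM at E0.5 and to 22.1, 7.02 and 77.6 FPKM at E4.5, and their part in the lipase values was not tested.

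In the role of other acid-forming and breakdown enzymes, both tested rows were lower at E0.5. The row of Cyp26c1, the family's other acid-degrading member, is merged with its neighbour Exoc6, so its values cannot be given to Cyp26c1 alone. It was at 0.133, 0.122 and 0.112 FPKM at E0.5 and at 3.81, 6.70 and 0.222 FPKM at E4.5 (log2 fold change -4.87, adjusted p = 0.0948, edgeR). Cyp1b1, a P450 enzyme that can also oxidise retinol, was at 1.14, 0.388 and 0.407 FPKM at E0.5 and at 12.9, 7.91 and 36.2 FPKM at E4.5 (log2 fold change -4.86, adjusted p = 0.0425, edgeR, and 0.00853 to 0.194 with a library left out). Of 14 tested retinol and retinal oxidoreductases on 13 rows, 2 were higher and 3 lower at E0.5, among them Rdh12 (-3.27), Dhrs9 (2.05, adjusted p = 0.0557, edgeR) and the row of Rdh16, merged with Rdh18-ps (2.60). None of 6 receptors, 6 coregulators or 2 binding proteins passed the criterion. The acid receptors had log2 fold changes of 0.38 (Rara), 0.40 (Rarb) and 0.28 (Rarg), and Fabp5, which carries retinoic acid to Ppard, had -1.27 (adjusted p = 0.388, edgeR). The role of genes known to respond to retinoic acid held no gene placed elsewhere in the lists. Cyp26a1, Stra6 and Lrat (lower at E0.5) and Dhrs3 (higher at E0.5) were thus not counted in it. Whether the acid raises or lowers each gene of the role was not tested. Of the 10 tested genes in this role, 3 were higher at E0.5 and none lower by the criterion. They were Tgm2 (106, 116 and 155.3 FPKM at E0.5 against 52.4, 52.2 and 17.6 FPKM at E4.5), with a log2 fold change of 1.62, Tbx1 (1.53) and Meis2 (1.06), the last of which passed in 1 of 6 fits with a library left out.

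At the labor stage 53 of the 65 genes were tested, of which none was higher and 2 were lower at E18.5 by the criterion, where 3.11% and 2.93% of all rows were, and none had an adjusted p under 0.05 in limma. Their median log2 fold change was 0.06. Stra6l, a relative of Stra6, was at 1.31, 0.932 and 0.536 FPKM at E15.5 and at 0.413, 0.401 and 0.229 FPKM at E18.5 (log2 fold change -1.15, adjusted p = 0.295, limma), and passed in 3 of 6 fits with a library left out. Crabp1, the relative of Crabp2, was at 1.44, 0.229 and 0.197 FPKM at E15.5 and listed at 0 in every E18.5 library, so no fold is given. It passed in 5 of 5 fits with a library left out. Without the first E15.5 library, its highest, it fell under the filter on mean FPKM and was not tested. The receptors Rara, Rarb and Rarg had log2 fold changes of 0.35, 0.24 and 0.30, and Fabp5 had -0.73 (adjusted p = 0.388, limma), under the fold of the criterion.

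By the Pearson correlation of log2(FPKM + 0.1) over the 6 libraries of the implantation stage, among 11682 protein-coding rows that averaged 1 FPKM or more, the rows most like Cyp26a1 were Sfxn2 (r = 0.998), Prmt5 (0.998), Atp6v0d2 (0.997), Cntnap1 (0.997) and Mdn1 (0.996). Of these, Atp6v0d2, a subunit of the vacuolar proton pump, had a span of levels nearest to that of Cyp26a1, at 0.651, 0.447 and 0.424 FPKM at E0.5 and at 46.2, 37.8 and 6.51 FPKM at E4.5. Aldh1a3 had the widest range of the 9 genes in the labor table, where the rows most like it among 11104 were Metap2 (0.997), the row of Pappa2 (0.993), C1s1 (0.983), Pcdh12 (0.983) and Serpinb9c (0.98). Pappa2, a protease of insulin-like growth factor binding proteins whose row is merged with 1600012P17Rik, was at 1.23, 0.355 and 0.521 FPKM at E15.5 and at 5.64, 8.60 and 10.5 FPKM at E18.5. The points of each correlation are 6 libraries in 2 days, so any row that differs between the days in the same direction can have a high value.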

How the data were processed

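Whole-uterus RNA of 12 mice was sequenced by the authors. Their methods name Cutadapt for trimming, Bowtie2 and Tophat2 for alignment, and StringTie and Ballgown for assembly and quantification, while the submitters' processing notes name Bowtie 0.12.2, HISAT2 2.0, StringTie 1.3.0 and the builds mm8 and mm10. Library preparation is given as poly(A) selection per the labels and as depletion of ribosomal RNA in the methods, which could change the level of transcripts without a tail. The FPKM values were deposited by the authors in a table per stage, normalized separately, and the implantation table also holds counts deposited by the authors, whose counting method is not given in the sources used here. A deposited FPKM of 0.0001 was set back to 0.

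Rows that averaged 0.1 FPKM or more across the 6 libraries of their table entered the tests. E0.5 against E4.5 was fitted with edgeR 4.0.16 (TMM, quasi-likelihood F-test) on counts, and E18.5 against E15.5 with limma 3.58.1 (trend) on log2(FPKM + 0.1). The difference between the stages was fitted with limma over 12 libraries on rows paired by shared Ensembl transcripts. Adjusted p-values are Benjamini-Hochberg over all tested rows. Unnamed rows (1.02% to 1.86% of counts) stayed in the fit. Fits were run on simulated data with the same spread for every row and no library that stood apart. That run does not show how the fits perform with a library like the third of E4.5. The 9 genes, the lists of 65 pathway genes and of 12 sets of markers, and the rule for named genes (all 9 genes, up to 3 rows past the criterion per role, the 3 acid receptors, Fabp5 and the 5 rows most like Cyp26a1 and like the member of widest range at labor) were chosen with earlier results of these data known. Rbp4 was named outside that rule, as the only gene of its role past the criterion and higher at E0.5. Names and overlaps came from the RefSeq table of GRCm38.p6. R 4.3.3, Python 3.11.15, pandas 2.3.3, NumPy 2.4.6, SciPy 1.17.1 and matplotlib 3.10.9 were used. Alternatives were other scalings, filters, pseudocounts, DESeq2 1.42.0, limma on FPKM, the replicate block and leaving out each library.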

Additional observations from a re-analysis of the deposited data

Results flagged for a closer look

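The effect of the day differed between the implantation and the labor stage for 4 of the 9 genes by a test of the difference itself (limma over the 12 libraries, unadjusted p under 0.05 and an absolute difference of at least 1). Cyp26a1 differed by -6.22 on the log2 scale (SE 0.99, adjusted p = 0.0103, limma), and by -7.19 to -5.67 with any 1 library left out. Stra6 differed by -3.06 (SE 0.84, adjusted p = 0.0777, limma), Aldh1a3 by -1.92 (SE 0.51, adjusted p = 0.0725, limma) and Dhrs3 by 1.09 (SE 0.32, adjusted p = 0.0968, limma). Stra6 and Aldh1a3 passed in 12 of 12 fits with a library left out and Dhrs3 in 9 of 12. Across all rows 12% passed, and the tables of the stages were normalized separately.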

How the results depend on the processing

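The number of genes past the criterion was 4 at the implantation stage, 2 at the labor stage and 4 for the difference between the stages. With an adjusted p under 0.05 required, these were 1, 0 and 1, and the alternatives moved the first and the last. At the implantation stage it was 5 without the third E4.5 library, 0 without any other single library and with the block, 4 in DESeq2 and 2 in the remaining alternatives, in which Rdh10 joined Cyp26a1 with adjusted p-values between 0.0327 and 0.05 in edgeR and limma. For the difference it was 4 without the third E4.5 library, 0 with the block and 1 or 2 in the others. On the criterion, with a mean of at least 1 FPKM required the difference kept 2, because fewer genes were tested. With 1 library left out the counts past the criterion ranged over 3 to 5, 2 to 3 and 3 to 5. The other alternatives gave 4 or 5 genes at the implantation stage, 2 at the labor stage and 3 to 5 for the difference. The replicate numbers did not pair the mice: deviations of same-numbered libraries correlated at -0.0556, 0.0182 and -0.0628 at the implantation stage and 0.017, 0.00069 and -0.0485 at the labor stage, and not every library correlated best with its own number. With the replicate block, 5, 2 and 5 genes passed, and rows past the adjusted threshold at the implantation stage went from 719 to 0 (8204 with an unadjusted p under 0.05). Cyp26b1 at the implantation stage also passed in DESeq2 and with the block.

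Directions that turned were those of small or uneven folds, and the cause was not tested. Aldh1a1 at the implantation stage was 1.61 with the block, and 0.20 and 0.43 in limma on log2(FPKM + 0.1) and log2(FPKM + 0.01), and spanned -3.81 to 3.04 with a library left out. At the labor stage Dhrs3 was -0.015 with 75th percentile scaling and Aldh1a2 0.094 with quantile normalization. For the difference, Rdh10 was 0.13 with 75th percentile scaling and Aldh1a1 -0.093 with a pseudocount of 1. With a library left out, log2 fold changes spanned -0.13 to 0.68 for Aldh1a3 (with -0.02 and -0.08 among them) and -2.48 to 1.14 for Crabp2 at the implantation stage. At the labor stage they spanned -0.076 to 0.17 for Dhrs3, -0.21 to 0.19 for Aldh1a2 (with 0.08 and 0.04), -0.76 to 0.10 for Cyp26a1 and -0.17 to 0.62 for Rara. For the difference they spanned -0.34 to 0.33 for Rdh10 (with 0.04, 0.08, 0.07, 0.20 and 0.08) and -0.79 to 3.28 for Aldh1a1 (with -0.24).

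Over all rows, the criterion called 7284 at the implantation stage but 3066 in limma on log2(FPKM + 1), 1870 at the labor stage but 514 with a pseudocount of 1 and 799 with a mean of at least 1 FPKM, and 2489 for the difference but 1106 and 1228 under those settings. Adjusted calls at the implantation stage went from 719 to 4812 in DESeq2, to 3193 without the third E4.5 library and fell to between 0 and 46 without any 1 of the E0.5 libraries or the first E4.5 library, and less far without the second E4.5 library. The 0 was in edgeR without the second E0.5 library, where 7431 rows had an unadjusted p under 0.05. At the labor stage they were 8, with a range of 0 to 29 over the alternatives, and for the difference 543, with 66 under the block and 1126 without the third E4.5 library. With 75th percentile scaling, the median of all rows for the difference moved from -0.14 to 0.00, and the calls from 1123 positive and 1366 negative to 1412 and 1035. The 4 genes past the criterion for the difference kept their signs there. Low counts limit Crabp2 at the implantation stage, and unknown depth limits low values at the labor stage.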

Other observations

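Rows without an Ensembl transcript also carry the names of the retinoic acid genes and were not counted as members, 9 in the first table and 4 in the second. Of the 9, the 3 past the criterion are given with their values. A minus-strand row past the end of the Rdh10 row (chromosome 1, 16132727 to 16133420, GRCm38) was at 7.58, 7.68 and 5.85 FPKM at E0.5 and at 2.63, 3.14 and 0.988 FPKM at E4.5, where E0.5 over E4.5 was 1.64 on the log2 scale (adjusted p = 0.153, edgeR). A minus-strand row inside Dhrs3 (chromosome 4, 144893807 to 144895627) was at 5.50, 5.44 and 6.27 FPKM at E0.5 and at 2.01, 2.51 and 2.89 FPKM at E4.5, where it was 1.23 (adjusted p = 0.0520, edgeR). A plus-strand row, also inside Dhrs3 (chromosome 4, 144921100 to 144922416), was at 2.56, 3.84 and 3.15 FPKM at E0.5 and at 1.32, 0.888 and 2.04 FPKM at E4.5, where it was 1.18 (adjusted p = 0.247, edgeR). These 3 stood higher at E0.5, as the Rdh10 and Dhrs3 rows did. The other 6 had log2 fold changes between -1.07 and 1.97 and did not pass the criterion, and among them a row named for Aldh1a2 had 0.70, against -0.72 for Aldh1a2 itself. The row named for Rdh10 that passed does not overlap the Rdh10 gene row. The sources do not say whether strand was used in counting, so reads of the rows inside Dhrs3 and of Dhrs3 itself could not be told apart. At the labor stage the rows named for Dhrs3 and Aldh1a2 had log2 fold changes between -0.05 and 0.27, none past the criterion.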
